A study of Homo sapiens with 24 samples.

Results

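The tubulin isotype genes described here are the 10 symbols TUBA1A, TUBA1B, TUBA1C, TUBA4A, TUBB, TUBB2A, TUBB2B, TUBB3, TUBB4B and TUBB6. They were taken from the deposited count table by gene name, and the choice was made with earlier results of these data known. The names matched 11 of the 48162 rows of the table, since TUBB3 has 2 rows. The cells were PPC1, an established line from a prostate cancer. RNA was sequenced from 4 conditions with 6 libraries each, 24 in all. The parental cells (UT) were untreated. Polyploid giant cancer cells (PGCC) were made by giving PPC1 cultures 8 Gy of radiation on day 2, collected on day 5 and kept on a strainer of 20 micron, so that PGCC differed from parental cells in radiation and in size selection together. UT_LCL and PGCC_LCL were the same populations exposed for 5 h to 5 uM LCL521, an inhibitor of the acid ceramidase ASAH1. The 4 conditions were harvested in parallel at 6 separate times, which the replicate numbers 1 to 6 mark. All libraries come from 1 cell line.

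Microtubules are hollow polymers of alpha and beta tubulin heterodimers, and they form the mitotic spindle and the tracks for transport in the cell. Humans carry several genes for each kind of tubulin. The encoded isotypes are nearly alike in the body of the protein and differ most in the acidic tail at the carboxyl end, where enzymes add and remove amino acids and where many motor and microtubule-associated proteins bind. Cells also adjust tubulin mRNA to the amount of free tubulin: when soluble dimers are in excess, a complex that reads the first amino acids of the new chain at the ribosome triggers decay of the message.

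The first coding bases are shown because they encode the residues read in that autoregulation. The capitals mark the first 12 bases of the coding sequence, taken from GENCODE 29 transcripts.

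TUBA1A: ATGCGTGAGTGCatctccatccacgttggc
TUBA4A: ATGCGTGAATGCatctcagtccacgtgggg
TUBB: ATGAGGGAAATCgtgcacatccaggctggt
TUBB2A: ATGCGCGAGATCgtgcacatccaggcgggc
TUBB4B: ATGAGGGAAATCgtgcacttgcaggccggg

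TUBA1B and TUBA1C have the same 30 bases as TUBA1A. The ends of the coding sequences of beta genes are shown because they encode the tails by which the isotypes are told apart. Each run holds the last 57 bases before the stop codon, and the capitals mark letters that differ from TUBB, position by position from the stop codon and without gaps.

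TUBB: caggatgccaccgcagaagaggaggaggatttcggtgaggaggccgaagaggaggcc
TUBB2A: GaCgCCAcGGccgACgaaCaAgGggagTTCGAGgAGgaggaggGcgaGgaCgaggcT
TUBB2B: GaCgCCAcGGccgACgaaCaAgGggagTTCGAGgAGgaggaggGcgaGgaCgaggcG
TUBB3: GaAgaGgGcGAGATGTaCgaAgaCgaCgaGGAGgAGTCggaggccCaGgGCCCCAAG
TUBB6: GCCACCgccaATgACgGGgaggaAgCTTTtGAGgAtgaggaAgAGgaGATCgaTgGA

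TUBB2A and TUBB2B each differed from TUBB at 24 of the 57 positions, TUBB6 at 31 and TUBB3 at 33. Over the whole coding sequence TUBA1A and TUBA1B were 97.2% identical and TUBB2A and TUBB2B 98.2%, whereas TUBB shared 80.9% with TUBB6. Such likeness limits how surely a read can be given to 1 gene. Of all 100-base windows in the transcript, 28.93% for TUBA1B, 43.65% for TUBB2A and 53.77% for TUBB2B occurred in the transcripts of no other annotated gene. For TUBA1C this was 70.37% and for TUBA1A 73.4%. TUBB4B reached 95.51% and TUBB6 100%. How reads shared between genes were counted was not given in the sources used here. Its part in the levels and shares of TUBA1A, TUBA1B, TUBA1C, TUBB2A and TUBB2B was not tested.

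The coordinates in the table are on hg19. TUBA1A (ENSG00000167552, chromosome 12, 49578579 to 49583107, minus strand) overlaps TUBA1C (ENSG00000167553, 49582519 to 49667114, plus strand) by 589 bases, and TUBA1B (ENSG00000123416) lies on the same chromosome from 49521565 to 49525180. TUBA4A (ENSG00000127824) lies on chromosome 2 from 220114433 to 220142892. TUBB2A (ENSG00000137267, 3153903 to 3157760) and TUBB2B (ENSG00000137285, 3224495 to 3231964) are neighbours on chromosome 6, and TUBB (ENSG00000196230, 30687978 to 30693203) is further along it. TUBB4B (ENSG00000188229) spans 140135665 to 140138159 on chromosome 9 and TUBB6 (ENSG00000176014) 12307668 to 12344319 on chromosome 18. The 2 rows named TUBB3 overlap by 14701 bases on chromosome 16. The row ENSG00000258947 (89987800 to 90005169) held 10 to 102 counts per library, and the row ENSG00000198211 (89985573 to 90002500) held 0 counts in all 24 libraries, so TUBB3 below means the former. Only 10.96% of the TUBB3 windows were in no other annotated gene. The others occurred in AC092143.1, TUBB2A, TUBB2B or TUBB4B. Of these, AC092143.1 overlaps the row ENSG00000198211 on the same strand and held 0 counts, so the figure does not measure likeness to other isotypes alone. Whether reads in the overlap of the TUBB3 rows were dropped as ambiguous was not given in the sources used here. Their part in the level of TUBB3, its place in the order and its shares was not tested. Whether strand was used in counting was not given in the sources used here, so reads in the TUBA1A and TUBA1C overlap cannot be told apart. All 10 genes with counts passed the filter on low counts in every comparison.

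Libraries held 14835246 to 19906601 counts in genes. Along the second principal component of all genes, which took 16.5% of the variance, replicates 4 and 5 stood apart from the other four in each of the 4 conditions. Some results are therefore also given without them, while counts for the gene lists are given only with them. Of the marker lists, the 6 epithelial markers summed to 785 to 1482 CPM over the libraries, a CPM being the gene's count scaled to the normalized library size, mostly from KRT8, KRT18 and KRT19, while EPCAM did not exceed 17 counts in any library. The neuronal markers summed to 2.21 to 4.43 CPM in parental cells and 4.74 to 8.34 CPM in PGCC, with SNAP25 at 0 in all libraries and DCX at no more than 1 count. NEFL had a mean of 1.73 CPM in parental cells and 4.87 CPM in PGCC, and SYP 0.719 and 1.58 CPM. Of the 10 neuronal markers 2 passed the filter on low counts and 2 were called higher in PGCC, where 23.1% of all genes tested were. The 6 leukocyte markers summed to 0.464 to 2.97 CPM in parental cells and 3.13 to 4.55 CPM in PGCC, with CD3E at no more than 1 count. PTPRC was above 0 in all 24 libraries, with a mean of 1.17 CPM in parental cells and 3.10 CPM in PGCC. Of these 6 markers 1 passed the filter, and it was called higher in PGCC. The 8 stromal markers summed to 54.5 to 134 CPM and 89.0 to 213 CPM, mostly from COL1A2. The part of these in the tubulin results was not tested. A level here is a share of the library, so more transcript per cell and fewer other transcripts cannot be told apart.

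Set against gene length, TUBB and TUBB4B dominated. In parental cells the level per kilobase of listed length was 423 CPM for TUBB and 296 CPM for TUBB4B, 127 CPM for TUBA1C, 35.2 CPM for TUBB6, 30.4 CPM for TUBA4A, 21.5 CPM for TUBA1B, 14.1 CPM for TUBA1A and 9.77 CPM for TUBB2A (means, n = 6). TUBB2B at 0.668 CPM and TUBB3 at 0.426 CPM per kilobase came last. In this order only TUBA1C against TUBB6 and TUBB2A against TUBB2B had ranges that did not overlap between neighbours. In PGCC the order was kept except that TUBA1A, at 42.5 CPM per kilobase, stood above TUBA1B at 37.1 CPM, and those neighbours overlapped. The order rests on the listed lengths. TUBA1B is listed at 3198 bases and TUBA1C at 1800, whereas the transcripts used for the windows above have 1627 and 3001 bases. Without division by length TUBA1B stood above TUBA1A in PGCC, at 119 and 81.4 CPM (means, n = 6).

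**Figure D1:**
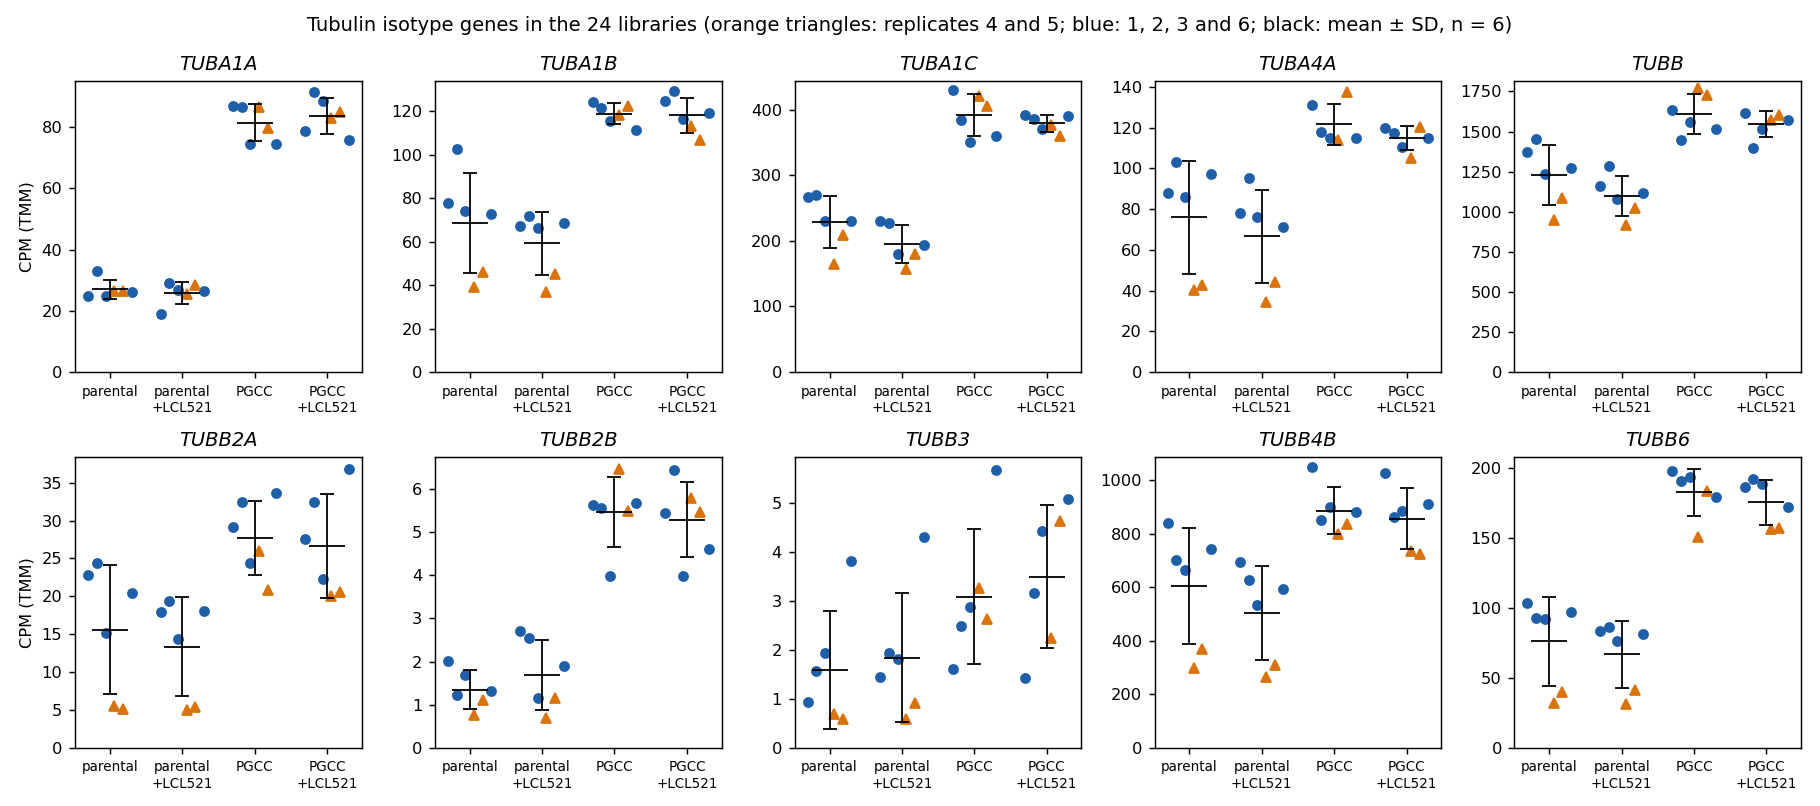
TMM-normalized CPM of the 10 tubulin isotype genes by condition, 1 point per library, with the mean and SD of 6 libraries in black and replicates 4 and 5 as orange triangles. TUBA1A sits between 24.8 and 33.1 CPM in parental cells and between 74.3 and 87.0 CPM in PGCC, while TUBB4B, TUBB6, TUBA4A and TUBB2A have their lowest parental values in replicates 4 and 5.

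The main comparison, PGCC against parental cells, asked which isotypes differ in the irradiated giant cells. Tubulin isotype mRNAs were higher in PGCC: 8 of the 10 genes rose with an adjusted p under 0.05 and none fell, where 23.1% of the 13812 genes tested rose and 24.3% fell. The median log2 fold change was 0.82 over the 10 genes and -0.03 over all genes tested. With the replicate number as a block all 10 rose, against 27.9% of all genes. The 6 genes TUBA1A, TUBA1B, TUBA1C, TUBA4A, TUBB2B and TUBB6 had PGCC values that all lay above all parental values, a pattern that 13.9% of the genes tested showed.

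Among the alpha genes, TUBA1A, the isotype best known from developing neurons, changed most. It stood at 24.8 CPM in the lowest, 26.2 in the median and 33.1 in the highest parental library. In PGCC these values were 74.3, 83.0 and 87.0 CPM, so that the groups were far apart. The fold change was 3.03 (95% interval 2.66 to 3.46, adjusted p = 2.05e-08, edgeR quasi-likelihood test with Benjamini-Hochberg adjustment). TUBA1C, a widely expressed isotype and the leading alpha gene here, went from 165, 231 and 270 CPM (lowest, median, highest) in parental cells to 351, 395 and 430 CPM in PGCC. Its fold was 1.72 (1.47 to 2.02, adjusted p = 4.43e-05). TUBA1B, also widely expressed, went from 39.1, 73.3 and 103 CPM to 111, 120 and 124 CPM, a fold of 1.74 (1.33 to 2.27, adjusted p = 0.00234). The parental libraries spread over a wide range and the PGCC libraries over a narrow one. TUBA4A, whose coding sequence lacks the final tyrosine codon of the other alpha genes, showed the same form, with 40.1, 86.7 and 103 CPM in parental cells and 114, 116 and 138 CPM in PGCC. Its fold was 1.61 (1.18 to 2.20, adjusted p = 0.0150).

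Among the beta genes the largest fold belonged to a gene of low level. TUBB2B, known from neuronal migration in the developing cortex, went from 0.755, 1.27 and 2.01 CPM to 3.99, 5.61 and 6.46 CPM, 4.06-fold (2.95 to 5.58, adjusted p = 4.59e-06). TUBB6, a divergent beta isotype, went from 31.9, 92.4 and 104 CPM to 151, 187 and 198 CPM, 2.42-fold (1.66 to 3.51, adjusted p = 0.000882). Neither gene's groups overlapped. TUBB, the main constitutive beta isotype, moved least, from 949, 1253 and 1455 CPM to 1450, 1595 and 1772 CPM. Its groups overlapped and the fold was 1.32 (1.14 to 1.52, adjusted p = 0.00346).

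TUBB4B, a broadly expressed isotype, went from 299, 684 and 838 CPM to 797, 867 and 1048 CPM, with overlapping groups. Its fold of 1.48 (1.09 to 2.01, adjusted p = 0.0374) lost its call when replicate 2, 3, 5 or 6 was left out, with adjusted p of 0.0620, 0.0755, 0.0800 and 0.0503. TUBB2A, at 5.13, 17.8 and 24.4 CPM in parental cells and 20.9, 27.6 and 33.6 CPM in PGCC, did not pass the test (1.79-fold, 1.09 to 2.96, adjusted p = 0.0527) but did with the block (2.04-fold, adjusted p = 0.00700). TUBB3, the neuronal isotype studied for its link with taxane resistance, likewise missed the threshold without the block (1.99-fold, 1.06 to 3.74, adjusted p = 0.0695) and passed with it (2.13-fold, adjusted p = 0.00649). It ran from 0.583 to 3.81 CPM in parental cells and from 1.61 to 5.68 CPM in PGCC.

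**Figure D2:**
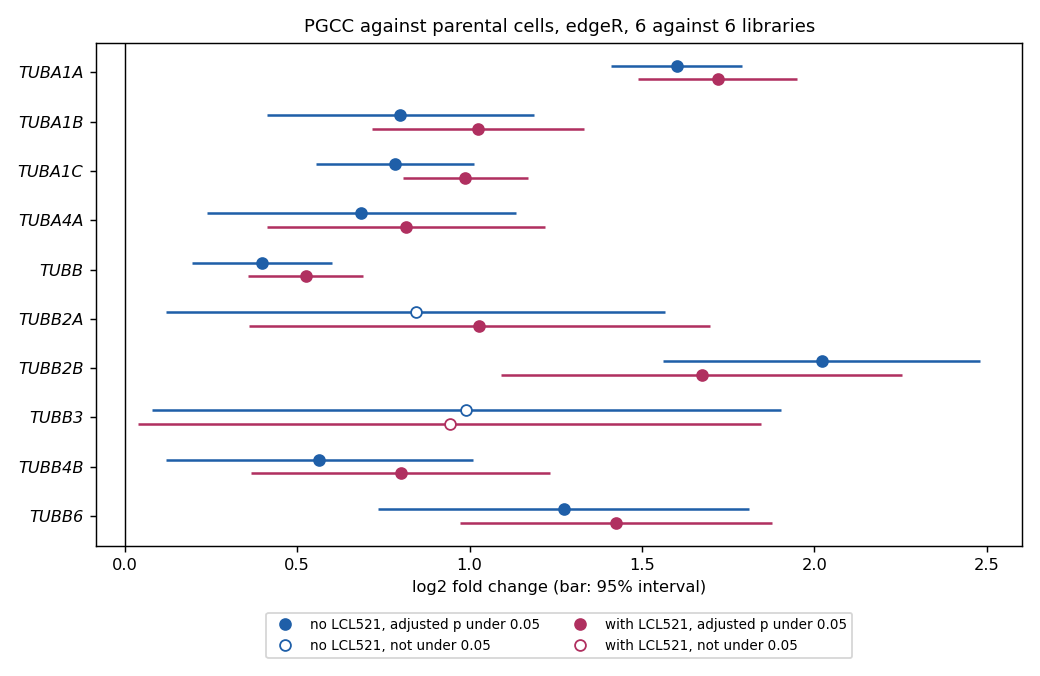
Log2 fold change of each gene in PGCC against parental cells, without LCL521 in blue and with it in red, with 95% intervals from edgeR on 6 against 6 libraries. Filled points have an adjusted p under 0.05. All 20 values lie above 0, and TUBB2A without LCL521 and TUBB3 in both comparisons are open.

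The size of the difference was not the same in all replicates for most of these genes. In same-numbered pairs, 9 of the 10 genes were higher in PGCC in all 6 pairs, which 24.7% of the genes tested were, and TUBB was higher in 5 of 6. TUBB6 differed by 0.89 to 1.08 on the log2 CPM scale in replicates 1, 2, 3 and 6, and by 2.21 and 2.24 in replicates 5 and 4. TUBA4A differed by 0.19 to 0.58 in the former and by a mean of 1.60 in replicates 4 and 5. TUBA1A alone among the 10 had its replicate 4 and 5 differences, 1.70 and 1.58, inside the range of the others, 1.38 to 1.81.

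The gap lay on the parental side. In parental cells TUBB2A was 1.91 lower in replicates 4 and 5 than in the others on the log2 CPM scale (means of 2 and 4 libraries), TUBB6 1.44 lower, TUBA4A 1.17 lower and TUBB4B 1.14 lower, with ranges that did not overlap. In PGCC the same gaps were 0.35 lower for TUBB2A, 0.19 lower for TUBB6 and 0.17 lower for TUBB4B, and TUBA4A was 0.07 higher. Summed mRNA of 20 genes of G2 and mitosis differed in the other direction. It was 338 to 667 CPM in parental replicates 1, 2, 3 and 6, and higher, 724 and 962 CPM, in parental replicates 4 and 5. In PGCC it was 2286 to 2620 CPM in the former replicates and 2720 and 2833 CPM in replicates 4 and 5. The part of the split and of these genes in the tubulin result was not tested. Without replicates 4 and 5 the log2 fold change fell from 0.69 to 0.37 for TUBA4A, from 0.40 to 0.23 for TUBB and from 0.56 to 0.34 for TUBB4B. It fell from 0.84 to 0.55 for TUBB2A, from 0.99 to 0.67 for TUBB3 and from 0.80 to 0.55 for TUBA1B. The values for TUBA1C went from 0.78 to 0.63, for TUBB6 from 1.27 to 1.00 and for TUBB2B from 2.02 to 1.75. TUBA1A changed least, from 1.60 to 1.58. Then 9 of 10 genes passed, TUBB2A included (adjusted p = 0.00683) and TUBB3 not (adjusted p = 0.207). In that fit 7543 of the 13809 genes tested passed, 3829 of them higher in PGCC.

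**Figure D3:**
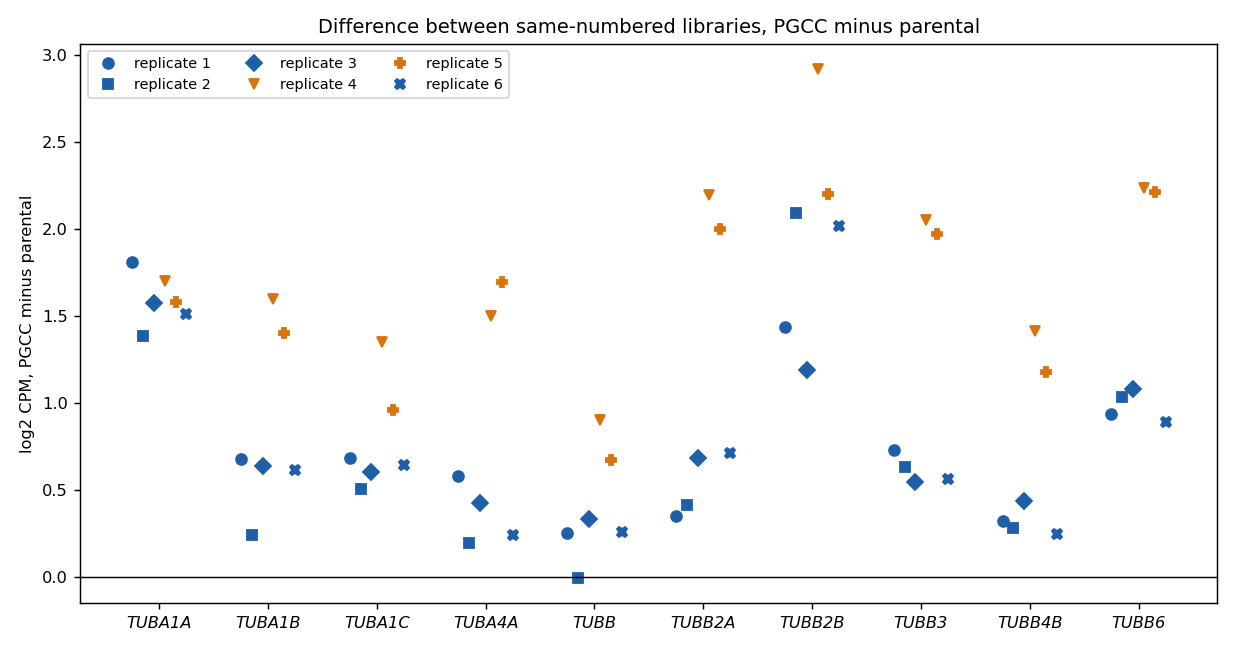
Difference in log2 CPM between the PGCC and the parental library of the same replicate number, for each gene, with replicates 4 and 5 in orange. For 9 genes both orange points lie above all blue ones, and for TUBA1A they lie within the blue range of 1.38 to 1.81.

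TUBA1C and TUBB remained the leading alpha and beta isotypes in both populations. Per kilobase of length, TUBA1C gave 66.3% ± 3.66 (SD, n = 6) of the summed alpha isotypes in parental cells and 62.9% ± 1.09 in PGCC. TUBA1A went from 7.52% ± 1.65 to 12.3% ± 0.533, and no parental value, the highest being 10.3%, reached the lowest PGCC value of 11.5%. TUBB gave 56.6% ± 7.14 of the summed beta isotypes in parental cells and 50.6% ± 3.37 in PGCC, and TUBB4B 37.6% ± 5.71 and 39.7% ± 2.71. TUBB6 went from 4.41% ± 1.04 to 7.73% ± 0.744, with 5.27% the highest parental and 6.39% the lowest PGCC value. TUBB2B and TUBB3 stayed below 0.3% of the beta sum in every parental and PGCC library. Without replicates 4 and 5 the mean share in parental cells and PGCC was 52.2% and 48.6% for TUBB. It was 41.1% and 41.3% for TUBB4B, 5.07% and 8.08% for TUBB6, 64.3% and 62.5% for TUBA1C, and 6.56% and 12.4% for TUBA1A. Without division by length TUBA1C gave 57.8% of the alpha sum in parental cells and 54.9% in PGCC. TUBA1B gave 16.8% and 16.7% without it, and 10.9% and 10.8% per kilobase. The listed lengths of TUBA1B and TUBA1C differ from those of the transcripts used for the windows. The part of length in the alpha shares was not tested. All these shares are descriptions, without a test.

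**Figure D4:**
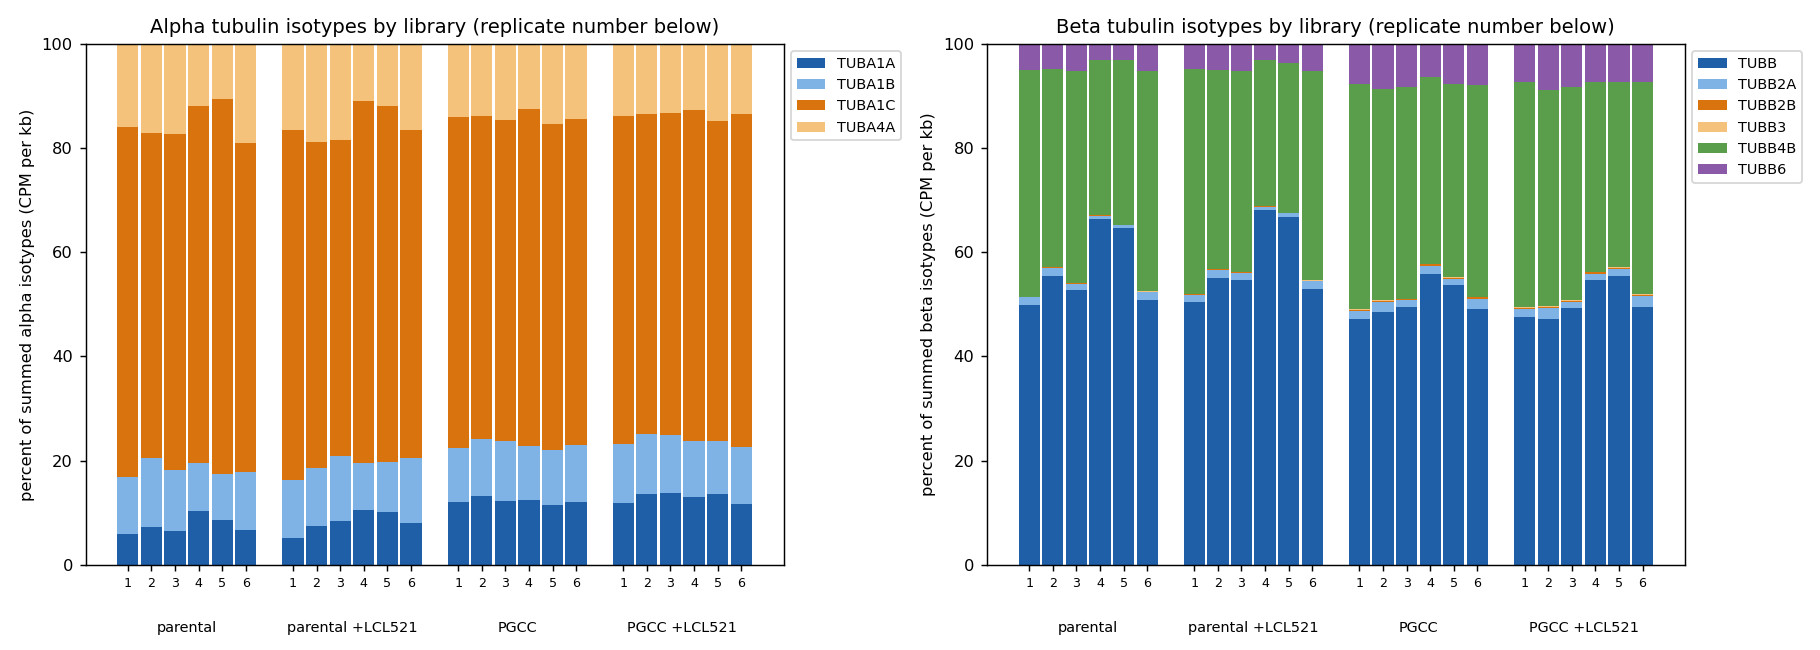
Share of each isotype in the summed alpha (left) and beta (right) tubulin CPM per kilobase, 1 bar per library, in percent, with the replicate number below each bar. TUBA1A rises from 7.52% to 12.3% of alpha and TUBB6 from 4.41% to 7.73% of beta between parental cells and PGCC, and parental replicates 4 and 5 have the highest TUBB shares, 64.6% and 66.3%.

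The same comparison between PGCC_LCL and UT_LCL uses other libraries from the same 6 harvest times, so it is not an independent repeat. Correlations of same-numbered libraries were 0.458 to 0.813 between UT_LCL and UT and 0.385 to 0.619 between PGCC_LCL and PGCC. In UT_LCL replicates 4 and 5, TUBB6 was again 1.18 and TUBB2A 1.71 lower than in the others on the log2 CPM scale. Between PGCC_LCL and UT_LCL 9 of the 10 genes rose, against 25.0% of the 13818 genes tested, and none fell, against 23.9%. With the block all 10 rose, against 29.5%. TUBA1A was 3.29-fold higher (2.81 to 3.86), TUBB2B 3.19-fold (2.13 to 4.77), TUBB6 2.69-fold (1.96 to 3.67) and TUBB 1.44-fold (1.28 to 1.62). TUBB2A passed here without the block (2.04-fold, adjusted p = 0.0139), and TUBB3 did not (1.92-fold, adjusted p = 0.0785; with the block 0.0158). Values did not overlap for 9 genes, TUBB3 being the exception, against 14.4% of all genes. Without replicates 4 and 5 the log2 fold change went from 0.82 to 0.56 for TUBA4A and from 1.67 to 1.34 for TUBB2B. It went from 0.80 to 0.63 for TUBB4B and from 1.03 to 0.81 for TUBB2A. Only TUBA1A went up, from 1.72 to 1.75.

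LCL521 was then compared with no inhibitor within each population. In parental cells 0 of the 10 genes passed the test, as did 0.0% of the 13277 genes (71 had an unadjusted p under 0.05, and DESeq2 also called 0). With the block, 2 of the 10 fell, against 0.346% of all genes. TUBB4B was 265, 562 and 693 CPM (lowest, median, highest) with LCL521 and 299, 684 and 838 CPM without, and was lower in all 6 pairs. Its fold with the block was 0.842 (0.797 to 0.889, adjusted p = 0.00713). TUBA1C was also lower in all 6 pairs, with a fold of 0.860 (0.813 to 0.910, adjusted p = 0.0133) with the block. TUBA1B and TUBB were lower in all 6 pairs as well, a pattern that 4.82% of the genes tested showed, without passing the test (adjusted p = 0.174 and 0.0990 with the block). Without replicates 4 and 5 neither TUBB4B nor TUBA1C passed with the block (adjusted p = 0.110 and 0.0897), while their log2 differences were -0.26 and -0.26.

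In PGCC, LCL521 changed 0 of the 10 genes, without or with the block, where 0.00707% and 1.65% of the 14151 genes passed, and DESeq2 called 6 genes in all, none of them among the 10. With the block the 95% interval of the log2 fold change ran from -0.12 to 0.02 for TUBB4B, from -0.12 to 0.04 for TUBA1C and from -0.05 to 0.13 for TUBA1A. Intervals were widest for the low genes, from -0.16 to 0.51 for TUBB3. The difference between the LCL521 effects in PGCC and in parental cells, tested as an interaction over 14555 genes, passed for 0 of the 10 genes and for 0.0% of all (60 genes had an unadjusted p under 0.05). For TUBB4B it was 0.19 with an interval of -0.21 to 0.60 with the block, so the effects were not shown to differ.

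**Figure D5:**
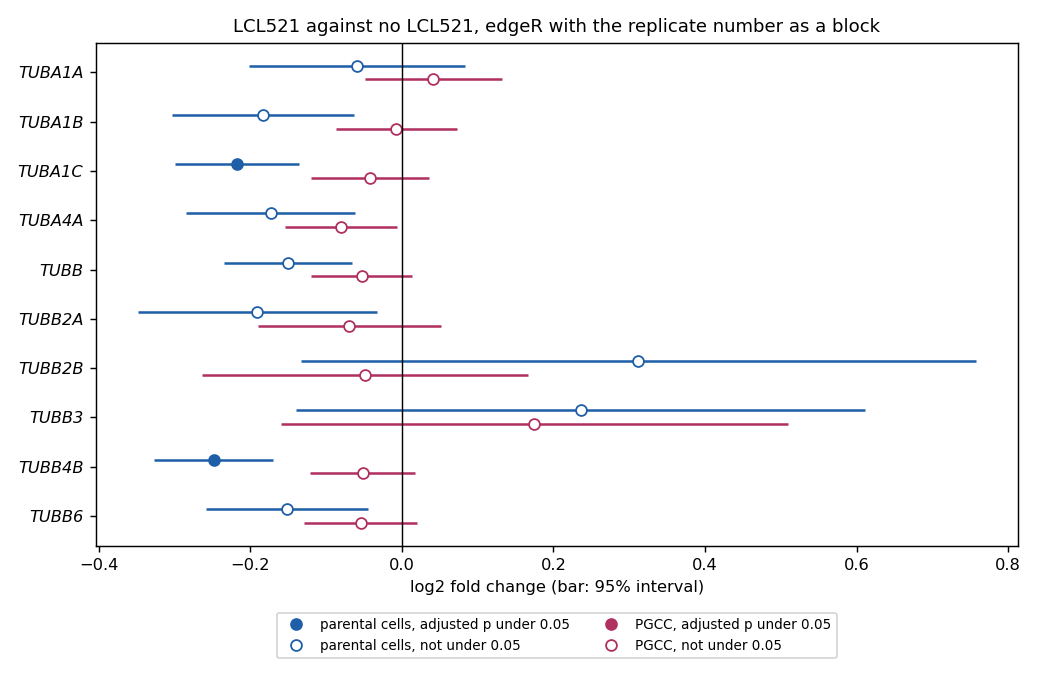
Log2 fold change with LCL521 against without it, in parental cells (blue) and in PGCC (red), from edgeR with the replicate number as a block, with 95% intervals. TUBA1C and TUBB4B in parental cells are filled, with an adjusted p of 0.0133 and 0.00713, and the PGCC values lie between -0.08 for TUBA4A and 0.17 for TUBB3, all open.

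Tubulin genes outside the 10 were described from a list of 12, of which 5 passed the filter. In PGCC against parental cells 4 rose. TUBB4A, a beta isotype known from brain, went from 10.5 ± 2.18 to 38.3 ± 9.72 CPM, a log2 fold change of 1.87. TUBG1, the gamma tubulin of the nucleating ring complex, rose by 1.12, its paralog TUBG2 by 1.24 and the delta tubulin TUBD1 by 0.84. TUBE1, the epsilon tubulin of centrioles, did not pass (-0.86, adjusted p = 0.0797), and without replicates 4 and 5 its value was 0.07.

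The counts for lists of genes that handle tubulin or act on the polymer, in the same comparison, are to be read beside the shares over all genes tested, of which 23.1% rose and 24.3% fell, and beside the median of -0.03 over all genes. No list was tested as a set. Of 21 folding genes, which encode prefoldin, the chaperonin ring and the cofactors that assemble the dimer, 2 rose and 12 fell, with a median log2 fold change of -0.24. ARL2, a small GTPase of the cofactor complex, fell by 0.74, and PFDN4, a prefoldin subunit, by 0.65, whereas TBCD, a cofactor of dimer assembly, rose by 0.56. All 3 autoregulation genes were tested and 2 fell. TTC5, which recognises the nascent tubulin chain and starts decay of its mRNA, went from 36.1 ± 3.48 to 16.0 ± 2.61 CPM, a fall of 1.16. CNOT11, a subunit of the deadenylase complex, fell by 0.25.

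Of the 17 tested genes that modify the tubulin tails, 3 rose and 3 fell, both below the shares over all genes, with a median of 0.05. TTLL5, a glutamylase, rose by 0.86, and AGTPBP1, which shortens glutamate chains, fell by 0.64. Of 17 tested lattice-binding proteins 7 rose and 2 fell, with a median of 0.21. TPX2, a spindle assembly factor, rose by 2.20 and PRC1, a bundler of the central spindle, by 2.04, while MAPT, which encodes tau, fell by 0.65 and MAP9 by 0.78. Of 13 destabilizing and severing genes 6 rose and 2 fell, with a median of 0.50. KIF2C and KIF18B, mitotic kinesins, rose by 2.53 and 2.52, and SPAST, a severing enzyme, fell by 0.81.

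Of 14 plus-end genes 8 rose and none fell, with a median of 0.50. CKAP5, a microtubule polymerase, rose by 1.00 and CLIP4 by 1.13. Of 19 tested nucleation genes 7 rose and none fell, with a median of 0.25. HAUS8, an augmin subunit, rose by 1.14 and MZT1 by 0.74. The 20 genes of G2 and mitosis all rose, with a median of 2.16, led by CDCA3 at 2.80 and the kinase AURKB at 2.72. Among the named lattice-binding and destabilizing genes, TPX2, PRC1, KIF2C and KIF18B are themselves used in mitosis and rose, while MAPT, MAP9 and SPAST fell. The part of mitosis in the counts of the other lists was not tested.

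Among non-tubulin genes whose mean log2 CPM was 3 or more, the 3 whose centred levels over the 24 libraries were nearest to TUBB2B, the gene with the largest rise, were PTGER4, TSPAN8 and MICB. Their root mean square differences were 0.353, 0.361 and 0.363 on the log2 scale. No tubulin isotype gene fell in PGCC against parental cells, so no such genes were sought for a falling one.

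The promoters of the pair with the largest folds are given, since these genes rose together. They are RefSeq sequences on GRCh38.p14, and the capitals mark CCAAT or its reverse complement ATTGG. Both genes are on the minus strand, TUBA1A at chr12:49189031-49189330 and TUBB2B at chr6:3227604-3227903.

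TUBA1A: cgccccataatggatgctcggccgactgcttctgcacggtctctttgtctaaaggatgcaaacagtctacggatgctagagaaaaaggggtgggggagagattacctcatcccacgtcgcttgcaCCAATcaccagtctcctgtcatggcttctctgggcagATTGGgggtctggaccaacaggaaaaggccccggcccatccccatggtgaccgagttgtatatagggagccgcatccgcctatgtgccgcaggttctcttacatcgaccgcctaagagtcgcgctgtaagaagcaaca
TUBB2B: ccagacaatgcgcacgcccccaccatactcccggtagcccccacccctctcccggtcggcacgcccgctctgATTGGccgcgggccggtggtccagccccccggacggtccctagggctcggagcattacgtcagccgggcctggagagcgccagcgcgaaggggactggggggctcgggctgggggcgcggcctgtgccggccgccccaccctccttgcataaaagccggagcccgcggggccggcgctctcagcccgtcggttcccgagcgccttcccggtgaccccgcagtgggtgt

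TUBA1A held 2 such matches and TUBB2B 1. Of 15 promoter entries for the 10 genes, 9 held CCAAT on either strand, against 34.6% of 35116 promoters of the same length. The entries of 1 gene can overlap, and a match describes letters only.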

How the data were processed

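RNA-seq libraries of PPC1 cells were analysed from raw counts per gene as deposited. Per the labels, the authors' processing notes name STAR, HTSeq and hg19, without versions, and HTSeq's strand and overlap settings were not given in the sources used here. Gene length, as deposited, was used for levels per kilobase. The genes and lists were chosen with earlier results of these data known.

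Counts were normalized by TMM and tested with edgeR 4.0.16 (R 4.3.3), quasi-likelihood, filterByExpr (minimum count 10), Benjamini-Hochberg adjustment over all genes and a threshold of 0.05. CPM and log2 CPM (prior count 2) were set over all 24 libraries. A CPM floor of 3 counts was 0.150 to 0.207. Alternatives were RLE, upper quartile and library total scaling, other count filters, DESeq2 1.42.0, limma-voom 3.58.1, a fit of all libraries, the block, a gene length correction, and leaving out replicates.

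The replicate numbers mark the harvest times. Same-numbered libraries deviated together in every pair (lowest correlation 0.171, highest 0.813), so the replicate block was also fitted. Libraries within a condition differed beyond sampling noise (chi-square per degree of freedom 4.98 to 110.75 over 60 pairs). The test was tried on simulated data. Named genes were all 10 members, for each list the 2 largest called rises and 2 largest called falls among genes averaging 2 log2 CPM or more, other tubulins passing the filter, and genes most alike the member with the largest rise. The design's search around a member falling in PGCC against parental cells found none. The coding ends of the alpha genes and 1 marker gene are not reported here.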

Additional observations from a re-analysis of the deposited data

Results flagged for a closer look

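In 4 of the 40 groups of 6 libraries (10 genes in 4 conditions), the highest or lowest library stood apart from the others by Dixon's ratio of gap to range on the log2 CPM scale, at the 95% critical value. Chance flags about 1 in 20 groups. TUBA1A was highest in parental replicate 2, at 33.1 CPM against 26.5 CPM for the next library. With LCL521 it was lowest in parental replicate 1, at 18.8 CPM against 25.5 CPM for the next. TUBB2B was lowest in PGCC replicate 3, at 3.99 CPM against 5.50 CPM, and TUBB6 in PGCC replicate 4, at 151 CPM against 180 CPM. The PGCC calls of these genes held without each of those replicates.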

How the results depend on the processing

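In PGCC against parental cells, 7 to 10 of the 10 genes were called over 18 alternatives (7 to 8 when a replicate was left out), and with LCL521 in both populations 9 to 10. Calls over all genes ran from 5529 of 13891 (without replicate 1) to 8881 of 13809 (without replicates 4 and 5, with the block). The filter of at least 1 count in any library called 7675 of 29759. With LCL521 they ran from 5734 of 13823 (without replicate 3) to 8035 of 29659 (at least 1 count in any library). TUBB4B lost its call without replicate 2, 3, 5 or 6. TUBB2A gained a call in 9 of 18 alternatives (adjusted p 0.000116 to 0.103) and TUBB3 in 6 of 18 (0.00649 to 0.207). For LCL521 in parental cells the replicate block called 2 genes, also with the gene length correction (2), and 0 in all other alternatives. The block changed no other call than those of TUBB2A, TUBB3, TUBA1C and TUBB4B. Over all genes it called 115 in that comparison, 234 with the length correction and 3 without replicates 4 and 5. In PGCC with LCL521, where 1 gene was called, the block called 234, with the length correction 260, and without replicates 4 and 5 it called 129. DESeq2 called 6. In that comparison the block moved called tubulin modification genes from 0 to 1, lattice-binding genes from 0 to 1, nucleation genes from 0 to 2 and G2 and mitosis genes from 0 to 1. For tubulin modification genes between PGCC_LCL and UT_LCL it gave 10 calls among 18 tested, 7 higher and 3 lower, where 56.3% of all genes were called.

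Signs turned only among values near 0 that were not called. For LCL521 in PGCC, TUBA1B was 0.0011 with library totals, 0.049 without replicates 4 and 5 and 0.049 with the block as well, and -0.025 to 0.032 when a replicate was left out. TUBA1C was 0.011 and 0.014 without replicates 4 and 5, and TUBB2B -0.11 to 0.0083 when a replicate was left out. For the interaction, TUBB3 was -0.23 to 0.063. The cause was not tested.

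Without division by gene length, shares of the alpha sum in parental, UT_LCL, PGCC and PGCC_LCL libraries were 16.8%, 16.9%, 16.7% and 17.0% for TUBA1B and 57.8%, 56.7%, 54.9% and 54.5% for TUBA1C. TUBA4A was 17.0% in PGCC and 16.5% in PGCC_LCL, and TUBA1A 11.4% in PGCC. Of the beta sum in the 4 conditions, TUBB was 64.9%, 66.1%, 59.3% and 59.2%, and TUBB4B 30.4%, 29.1%, 32.6% and 32.7%. TUBB2A was 0.752%, 1.03% and 1.02% in UT_LCL, PGCC and PGCC_LCL. TUBB2B was 0.0696% in parental cells and 0.202% in PGCC. In PGCC and PGCC_LCL, TUBB3 was 0.115% and 0.135% and TUBB6 6.75% and 6.73%. Shorter listed lengths raise a share per kilobase by construction. TUBB2B and TUBB3, with as few as 12 and 10 counts in a library, were the least precise.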
